A study of Homo sapiens with 6 samples.

Results

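The BCL2 family members described here are 10 genes of the mitochondrial pathway of apoptosis, BCL2L1, BCL2A1, MCL1, BIK, BAX, BAK1, BID, BBC3, PMAIP1 and BCL2L11, found by symbol among the 23344 gene rows of the table. All 10 had a single row, and all 10 Ensembl IDs carried the same symbol in GENCODE release 29. Their RNA was measured by RNA sequencing in Huh7, a long-established line of human hepatoma cells. The knockdown group (3 libraries, labelled sh2) had received a lentivirus against the V1 isoform of versican, a large matrix proteoglycan encoded by VCAN, and the control group (3 libraries, labelled shNC) a control lentivirus. Both viruses were made in 293T cells and given with polybrene, so virus and polybrene are common to both groups, and all knockdown libraries carry the same hairpin label. The study asks what loss of versican V1 does to these cells.

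Apoptosis through mitochondria is decided by proteins that share BCL2 homology (BH) domains. The effectors BAX and BAK open pores in the outer mitochondrial membrane, which releases cytochrome c and leads to caspase activation. Antiapoptotic members (BCL-XL from BCL2L1, MCL1 and BFL1 from BCL2A1) bind and hold the effectors and the BH3-only proteins, and BH3-only proteins (BIK, PUMA from BBC3, NOXA from PMAIP1, BIM from BCL2L11 and BID) bind the antiapoptotic members or activate the effectors. Hepatocytes are known to depend on BCL-XL and MCL1.

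The BH3 core is the short helix through which BH3-only proteins and effectors bind antiapoptotic members. It is shown because it is what members of opposed roles have in common. The pattern was a leucine, 3 further residues, a glycine or alanine and an aspartate. The last of the 3 residues had to be isoleucine, methionine, valine, alanine or phenylalanine. It was searched in the coding sequence of 1 principal GENCODE 29 transcript per gene (GRCh38), and 9 of 10 members had 1 match to the whole pattern. The lines give the coding strand with the codons of the leucine, of the glycine or alanine and of the aspartate in capitals.
BCL2L1, chr20:31721925-31721963 (-): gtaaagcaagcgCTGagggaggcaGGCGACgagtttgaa
MCL1, chr1:150578868-150578906 (-): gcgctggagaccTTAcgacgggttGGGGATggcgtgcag
BAX, chr19:48955775-48955813 (+): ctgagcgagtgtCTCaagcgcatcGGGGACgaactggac
BAK1, chr6:33575390-33575428 (-): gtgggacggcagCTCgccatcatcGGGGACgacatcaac
BIK, chr22:43127704-43127742 (+): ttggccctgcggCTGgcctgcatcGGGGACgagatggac
BBC3, chr19:47226582-47226620 (-): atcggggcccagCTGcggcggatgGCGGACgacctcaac
PMAIP1, chr18:59902661-59902699 (+): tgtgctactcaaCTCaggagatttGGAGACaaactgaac
BCL2L11, chr2:111150091-111150129 (+): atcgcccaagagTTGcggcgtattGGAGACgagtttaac
BID, chr22:17739418-17739456 (-): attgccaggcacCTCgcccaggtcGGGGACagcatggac
BCL2L1 and MCL1 are antiapoptotic genes, BAX and BAK1 effectors and the others BH3-only genes. In BBC3 the capitals hold GCG, an alanine codon, where the other 8 hold a glycine codon. The pattern had no match in BCL2A1. Each stretch lay within a single coding exon, exon 3 of 5 in BIK and exon 1 of 3 in MCL1.

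Values were treated as FPKM (fragments scaled to gene length and library size), although the file does not name its unit, and the number of reads is unknown. The libraries summed to between 922125 and 975501 in the knockdown group and between 851418 and 947769 in the control group. VCAN was at 1.90, 1.74 and 1.64 in knockdown replicates 1, 2 and 3, against 4.79, 6.24 and 8.10 in control replicates 1, 2 and 3, and no value separates the V1 isoform from the others. The log2 fold change of VCAN was -1.39 (SE 0.19, adjusted p = 0.0103), and adjusted p = 0.0562 without control replicate 2. All 9 hepatocyte markers looked up (such as ALB, AFP and APOB) were at 1 or more in every library; APOA1 and FGB rose, TTR fell and the median log2 fold change was 0.25. Of 16 leukocyte markers, 15 had a row; 10 reached 1 in knockdown replicate 2, against 6 and 5 in knockdown replicates 1 and 3 and 5 in each control library, and their summed level was 231 in knockdown replicate 2, 119 and 121 in knockdown replicates 1 and 3, and 84.7 to 100.4 in the control libraries. HLA-DRA was at 11.7, S100A8 at 17.9 and NKG7 at 5.54 in knockdown replicate 2, against 0 for each in knockdown replicates 1 and 3 and at most 0.14 in the control libraries. Of 7 stromal and endothelial markers, 5 had a row, and their summed level was 149 to 174 in knockdown and 164 to 183 in control libraries, nearly all of it from LUM, which was at 147 or more in each library. Rose and fell are written of genes whose adjusted p in limma, over the 13696 genes tested, was below 0.05. Log2 fold changes are knockdown minus control of log2(value + 1), so that changes of low genes come out too small.

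BIK, MCL1 and BCL2A1 rose in the knockdown libraries, and no member fell. That is 3 of 10 members, where 8.08% of all genes tested changed, 4.15% rose and 3.94% fell. At an unadjusted p below 0.05 there were 5 members higher and 3 lower, and 29.3% of all genes tested had such a p. The members' log2 fold changes ran from -0.61 to 1.61 with a median of 0.38, against a median of -0.03 over all genes tested. All 10 passed the filter on low values (at least 1 in at least 3 libraries), but BCL2A1 passed through the knockdown libraries alone, so that any gene like it had to differ; without BCL2A1 the members that rose are BIK and MCL1. Members were chosen with results of these libraries known, so their count is a description. In a bulk sample, a change in the share of cells that make an RNA and a change in the RNA per cell cannot be told apart.

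**Figure D1:**
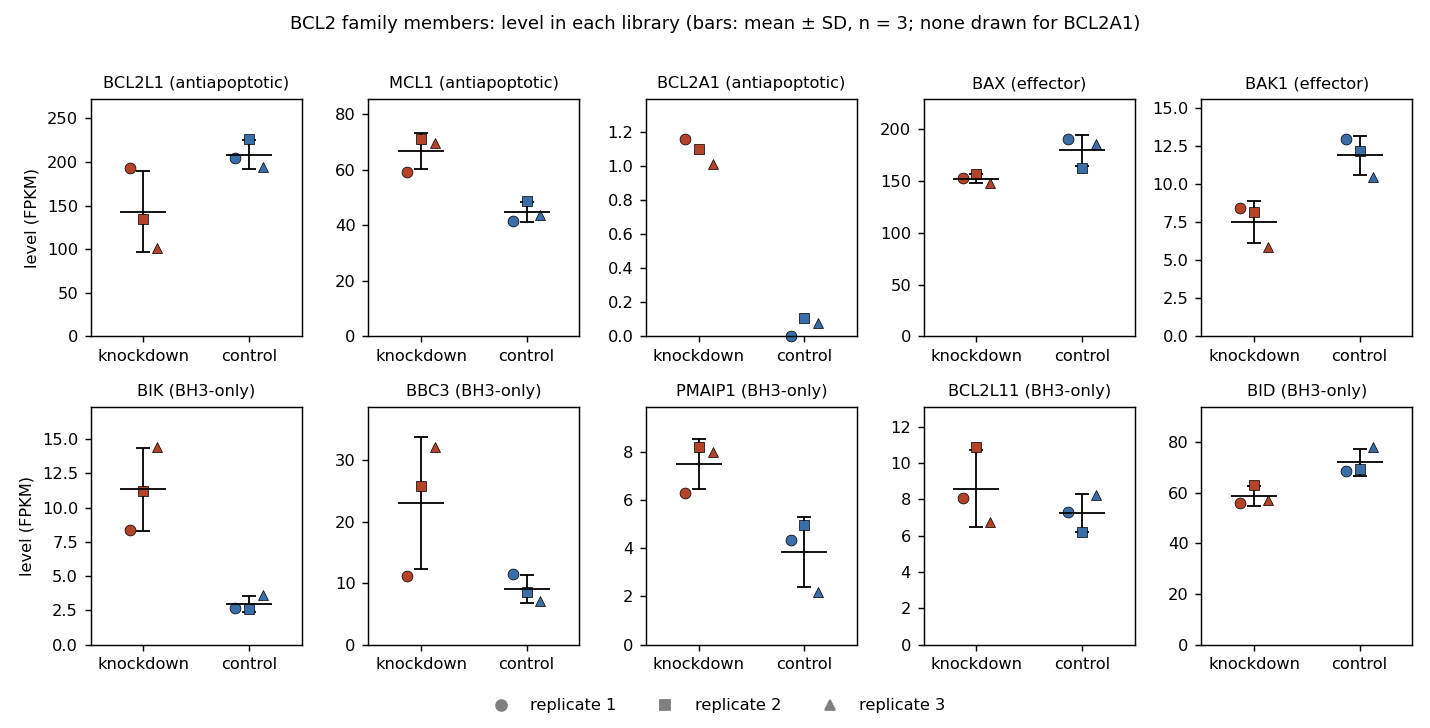
Level in FPKM (vertical axes from 0, a scale per gene) of each member in the 3 knockdown libraries (red, left) and the 3 control libraries (blue, right), with circles, squares and triangles for replicates 1, 2 and 3, and black bars for the mean ± SD (n = 3), not drawn for BCL2A1. For 8 of the 10 genes every knockdown library lies on one side of all control libraries, as for 33.1% of all genes tested. BBC3 and BCL2L11 are the others. The split of BCL2A1, among the 8, was fixed by the filter on low values, which it passed through the knockdown libraries alone.

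The members sat at very unequal levels. On the per-length FPKM scale the order in the knockdown libraries, from high to low by mean, was BAX, BCL2L1, MCL1, BID, BBC3, BIK, BCL2L11, PMAIP1, BAK1 and BCL2A1. In the control libraries it was BCL2L1, BAX, BID, MCL1, BAK1, BBC3, BCL2L11, PMAIP1, BIK and BCL2A1. In the knockdown group the ranges of BAX and BCL2L1 overlapped, as did those of MCL1 and BID and of each neighbouring pair from BBC3 down to BAK1. In the control group neighbours overlapped between BAK1 and BBC3, between BBC3 and BCL2L11 and between PMAIP1 and BIK, and the other neighbours were apart. BCL2L1 and BAX had mean levels above those of 95.6% and 95.2% of all genes tested, MCL1 above 85.2% and BIK above 40.3%.

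Among the antiapoptotic genes, MCL1 (ENSG00000143384), which encodes a short-lived protein that holds BAK and BIM, was at 59.4, 71.3 and 69.6 FPKM in knockdown replicates 1, 2 and 3, against 41.6, 48.8 and 43.7 in control replicates 1, 2 and 3. Every knockdown library was above every control library. The mean level was 66.8 ± 6.43 FPKM in knockdown and 44.7 ± 3.70 in control libraries (SD, n = 3 each), 1.49 times as high, with a log2 fold change of 0.57 (SE 0.12, adjusted p = 0.0317). Leaving out any library other than knockdown replicate 1 raised the adjusted p of MCL1 above the threshold: it was 0.115 and 0.107 with knockdown replicate 2 or 3 left out, and 0.0904, 0.0894 and 0.0916 with control replicate 1, 2 or 3 left out.

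BCL2L1 (ENSG00000171552) encodes BCL-XL and, through alternative splicing, the proapoptotic BCL-XS, which a row per gene does not separate. It was at 193.59, 134.8 and 101.1 FPKM in knockdown replicates 1, 2 and 3, against 204.5, 226.9 and 193.95 in control replicates 1, 2 and 3. The groups did not overlap, though knockdown replicate 1 lay just under the lowest control library, and knockdown replicates 2 and 3 lay far below it. BCL2L1 had the highest mean of the 10 in the control libraries, 208 ± 16.8 FPKM, and a mean of 143 ± 46.8 in the knockdown libraries (SD, n = 3 each), and it did not pass the test (log2 fold change -0.59, SE 0.21, adjusted p = 0.111). Without knockdown replicate 1 it did pass (-0.83, adjusted p = 0.00543), where 24.4% of all genes tested passed. With any other library left out the adjusted p of BCL2L1 was 0.178 to 0.289. The antisense gene ABALON covers 43.0% of the annotated exonic bases of BCL2L1, and since no source states that strand was used in counting, reads of the pair cannot be told apart.

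The level of BCL2L1 relative to MCL1, a comparison chosen after the values were seen and not tested, was 3.26, 1.89 and 1.45 in knockdown replicates 1, 2 and 3, against 4.91, 4.65 and 4.44 in control replicates 1, 2 and 3. Both are levels per length. All knockdown libraries were below all control libraries in this ratio, and BCL2L1 remained above MCL1 in each of the 6 libraries. The level of BCL2L1 relative to BAX was 1.27, 0.86 and 0.68 in knockdown replicates 1, 2 and 3. In control replicates 1, 2 and 3 it was 1.07, 1.39 and 1.05, so the groups overlapped in that ratio, which was not tested either.

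BCL2A1 (ENSG00000140379) encodes BFL1, an antiapoptotic member best known from leukocytes as a target of NF-kB. It was at 1.16, 1.10 and 1.01 FPKM in knockdown replicates 1, 2 and 3, against 0, 0.11 and 0.08 in control replicates 1, 2 and 3. The knockdown libraries lay close together and all control libraries were near 0, yet BCL2A1 stayed the lowest of the 10 members in both groups. Its log2 fold change was 0.98 (SE 0.19, adjusted p = 0.0233) with a pseudocount of 1 and 2.93 (adjusted p = 0.0414) with a pseudocount of 0.1. The adjusted p of BCL2A1 was 0.0858 and 0.0776 with knockdown replicate 2 or 3 left out, 0.0725, 0.0863 and 0.0600 with control replicate 1, 2 or 3 left out, and 0.0518 with quantile normalization. Of the leukocyte markers, PTPRC, which encodes CD45, was at 0.13, 1.96 and 0.06 in knockdown replicates 1, 2 and 3 and at most 0.16 in the control libraries, and CD3E was at 0.07, 0.43 and 0 in the knockdown and at 0 in the control libraries. ITGAM, which was not tested, was at 0.36, 1.45 and 0.67 in the knockdown libraries against at most 0.05 in the control libraries. Of the 6 leukocyte markers tested, LYZ rose (50.2 ± 16.0 FPKM in knockdown and 22.6 ± 3.74 in control libraries (SD, n = 3 each), log2 fold change 1.08, adjusted p = 0.0277). S100A9 was at 4.13, 30.6 and 1.92 FPKM in knockdown replicates 1, 2 and 3, against 1.65, 1.59 and 0.57 in control replicates 1, 2 and 3. It did not pass the test (log2 fold change 1.82, SE 0.85, adjusted p = 0.213). CD14, LCP1, CSF3R and CORO1A, with log2 fold changes of 0.20, 0.49, 0.16 and -0.26, did not pass, and the part of these markers in the result was not tested.

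The promoter of BCL2A1 is shown because the gene was near 0 in the control libraries and is the one member that rose for which a promoter sequence was given. The window runs from 250 bases before to 50 bases after the RefSeq start (GRCh38.p14, chr15:79971147-79971446, minus strand, 5′ to 3′), with matches to the motifs searched in capitals.
BCL2A1 promoter: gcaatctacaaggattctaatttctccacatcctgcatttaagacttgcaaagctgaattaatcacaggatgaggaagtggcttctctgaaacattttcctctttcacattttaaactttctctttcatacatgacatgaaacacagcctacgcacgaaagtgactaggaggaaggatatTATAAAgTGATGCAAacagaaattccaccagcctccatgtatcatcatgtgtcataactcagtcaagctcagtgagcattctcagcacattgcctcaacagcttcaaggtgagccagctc
Promoters of 8 members were searched on both strands for the TATA box TATAAA, the GC box GGGCGG, the AP-1 site TGANTCA, the cyclic AMP response element TGACGTCA, the CHOP-ATF4 composite TGATGNAA, the E-box CACGTG and the NF-kB site (13 windows, since BCL2L1 and BID have several starts). The BCL2A1 window held TATAAA, starting 70 bases before the start (at -70), and TGATGNAA at -63, with no overlap between them; 11.5% and 3.62% of all 35116 RefSeq promoters hold these letters. The window of BCL2A1 held no GGGCGG, which 45.0% of all promoters hold, and had 41.0% G and C. The windows of PMAIP1 and BCL2L11 held 4 and 3 GGGCGG matches and had 71.3% and 74.7% G and C. The BBC3 window held TGANTCA at -113, found in 7.71% of all promoters, and CACGTG, found in 7.26%. The BAX window held CACGTG 4 times. None of the 13 windows held the NF-kB site (11.3% of all promoters) or TGACGTCA (1.85%). These are matches of letters and not evidence of binding, and sequence outside the windows was not searched.

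The effectors lay on the low side. BAX (ENSG00000087088) was at 153, 156 and 148 FPKM in knockdown replicates 1, 2 and 3, against 191, 163 and 186 in control replicates 1, 2 and 3. The groups did not overlap, but the gap was small. Its mean was 152 ± 4.26 FPKM in knockdown and 179.8 ± 15.1 in control libraries (SD, n = 3 each), and it did not pass the test (log2 fold change -0.23, SE 0.11, adjusted p = 0.181).

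BAK1 (ENSG00000030110), which encodes BAK, was at 8.43, 8.18 and 5.90 FPKM in knockdown replicates 1, 2 and 3, against 13.01, 12.2 and 10.5 in control replicates 1, 2 and 3. Every knockdown library was below every control library. With 7.50 ± 1.39 FPKM in knockdown and 11.9 ± 1.28 in control libraries (SD, n = 3 each), its log2 fold change was -0.61 (SE 0.16, adjusted p = 0.0540), just short of the threshold. It passed without knockdown replicate 1 (-0.69, adjusted p = 0.0195), where 24.4% of all genes tested passed. With any other library left out the adjusted p of BAK1 was 0.0924 to 0.176. BAK1 has a processed pseudogene with a row of its own, BAK1P1, which was at 0.16 to 0.54 FPKM in knockdown and 0.32 to 0.40 in control libraries, so reads shared with BAK1 can have been split. The BAX level was 18.1, 19.1 and 25.1 times the BAK1 level in knockdown replicates 1, 2 and 3, against 14.7, 13.3 and 17.7 times in control replicates 1, 2 and 3.

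Of the 5 BH3-only members, BIK was the one that rose. BIK (ENSG00000100290) encodes a BH3-only protein of the endoplasmic reticulum that binds BCL-XL and BCL2. It was at 8.36, 11.2 and 14.4 FPKM in knockdown replicates 1, 2 and 3, against 2.69, 2.61 and 3.65 in control replicates 1, 2 and 3. The lowest knockdown library was more than double the highest control library. Its mean was 11.3 ± 3.04 FPKM in knockdown and 2.98 ± 0.58 in control libraries (SD, n = 3 each), 3.80 times as high (log2 fold change 1.61, SE 0.21, adjusted p = 0.00977). Over 12 alternatives BIK passed in 11, with log2 fold changes from 1.43 to 1.87, and it missed the threshold without control replicate 2 (1.54, adjusted p = 0.0534).

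BBC3 (ENSG00000105327) encodes PUMA, a target of FOXO factors that binds all antiapoptotic members. It was at 11.1, 25.7 and 32.2 FPKM in knockdown replicates 1, 2 and 3, against 11.4, 8.51 and 7.04 in control replicates 1, 2 and 3. Knockdown replicate 1 lay inside the control range, and the other two knockdown libraries lay well above it. BBC3 did not pass the test (log2 fold change 1.17, SE 0.35, adjusted p = 0.0703), and it passed without knockdown replicate 1 (1.60, adjusted p = 0.00196). With any other library left out its adjusted p was 0.114 to 0.214.

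PMAIP1 (ENSG00000141682) encodes NOXA, which binds chiefly MCL1 and BFL1. It was at 6.31, 8.23 and 8.02 FPKM in knockdown replicates 1, 2 and 3, against 4.35, 4.98 and 2.20 in control replicates 1, 2 and 3. The groups did not overlap. Its mean was 7.52 ± 1.05 FPKM in knockdown and 3.84 ± 1.46 in control libraries (SD, n = 3 each), 1.96 times as high, and it did not pass the test (log2 fold change 0.86, SE 0.24, adjusted p = 0.0598) except without knockdown replicate 1 (0.96, adjusted p = 0.0288).

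BID (ENSG00000015475) encodes a protein that caspase-8 cleaves to link death receptors to mitochondria. It was the most abundant BH3-only gene, at 55.7, 62.9 and 57.0 FPKM in knockdown replicates 1, 2 and 3, against 68.4, 69.4 and 78.1 in control replicates 1, 2 and 3. The groups did not overlap, and BID did not pass the test (log2 fold change -0.29, SE 0.11, adjusted p = 0.127). BCL2L11 (ENSG00000153094), the BIM gene, was at 8.09, 10.9 and 6.74 FPKM in knockdown replicates 1, 2 and 3, against 7.32, 6.19 and 8.26 in control replicates 1, 2 and 3. The BCL2L11 groups overlapped (log2 fold change 0.20, SE 0.19, adjusted p = 0.518), and 10.9% of its annotated exonic bases are shared with MIR4435-2HG on the opposite strand.

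The 3 knockdown libraries did not depart from the controls to the same extent. Of the 10 members, 6 had their smallest distance from the control mean (in log2) in knockdown replicate 1, 2 in replicate 2 and 2 in replicate 3; the share for replicate 1 was 47.0% over all genes tested and 64.1% over the genes called. VCAN in knockdown replicate 1 was 1.90, near the 1.74 and 1.64 of the other two. Without knockdown replicate 1, 7 of the 10 members passed, with BIK, BBC3, PMAIP1, BCL2A1 and MCL1 higher and BCL2L1 and BAK1 lower, while 24.4% of all genes tested passed. With knockdown replicate 2 or 3 left out 1 member passed each time, where 1.0% and 1.46% of all genes tested did. With control replicate 1, 2 or 3 left out 1, 0 and 1 members passed, where 1.09%, 0.394% and 1.62% of all genes tested did. Among the other alternatives, 3 members passed with a pseudocount of 0.1 and 3 after rescaling without mitochondrially encoded genes, where 7.78% and 6.53% of all genes tested did. With no filter, quantile normalization or no trend and robust moderation 2 members passed each time, where 0.93%, 7.26% and 5.31% did, and with the replicate block 4 members passed, where 6.29% did.

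**Figure D2:**
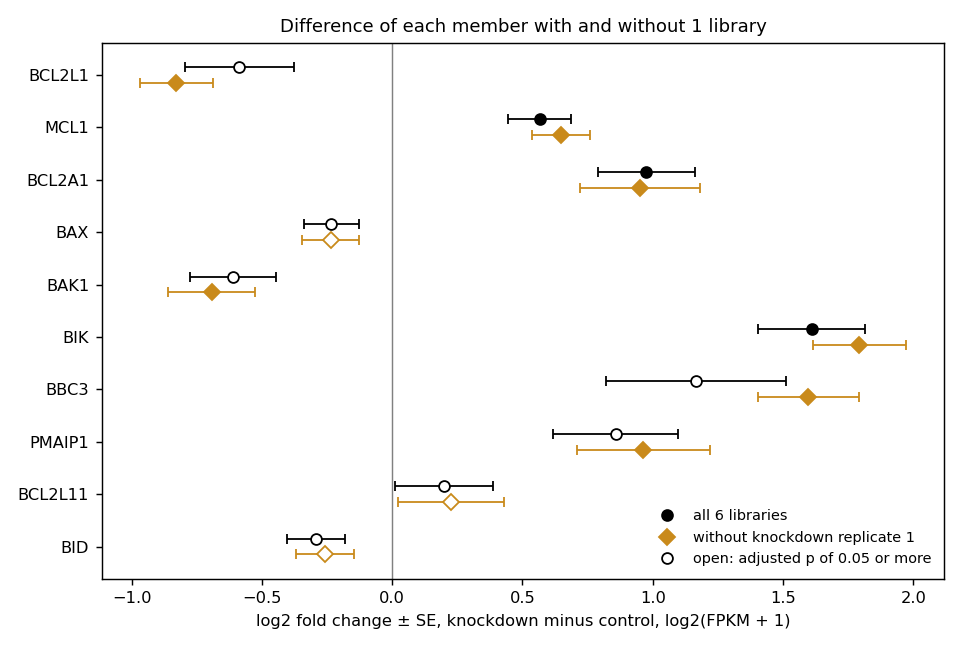
Log2 fold change (knockdown minus control, log2(FPKM + 1)) with its SE for each member, from all 6 libraries (black circles) and without knockdown replicate 1 (orange diamonds); filled symbols have an adjusted p below 0.05. With all libraries the filled points are BIK, BCL2A1 and MCL1, and without knockdown replicate 1 BBC3, PMAIP1, BCL2L1 and BAK1 are filled as well.

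For 8 of the 10 members the 2 groups of libraries did not overlap, where the share was 33.1% over all genes tested. Of these 8, BIK, MCL1, BCL2A1 and PMAIP1 were higher and BCL2L1, BAX, BAK1 and BID lower in the knockdown libraries. The split of BCL2A1 was fixed by the filter on low values, which it passed through the knockdown libraries alone. With 3 libraries against 3, an exact two-sided permutation test of a single gene cannot go below p = 0.1.

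Summed by role, the levels per length moved in different ways. The 5 BH3-only genes together made up 17.7%, 24.2% and 26.7% of the summed level of the 10 members in knockdown replicates 1, 2 and 3, against 17.3%, 16.9% and 18.6% in control replicates 1, 2 and 3. In this share knockdown replicate 1 lay within the control range, and knockdown replicates 2 and 3 lay above it. The BH3-only sum itself was 89.55, 119 and 118 FPKM in knockdown replicates 1, 2 and 3. In control replicates 1, 2 and 3 it was 94.2, 91.7 and 99.2 FPKM, so knockdown replicate 1 lay below all control libraries. The share also depends on the total of the 10 members. That total was 505, 491 and 444 FPKM in knockdown replicates 1, 2 and 3, against 545, 543 and 533 in control replicates 1, 2 and 3. The summed level of the antiapoptotic genes was 254, 207 and 172 FPKM in knockdown replicates 1, 2 and 3, against 246, 276 and 238 in control replicates 1, 2 and 3, and that of the effectors was 154 to 165 FPKM in knockdown and 175 to 204 FPKM in control libraries. These sums were not tested, and sums of RNA levels do not give amounts of protein.

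**Figure D3:**
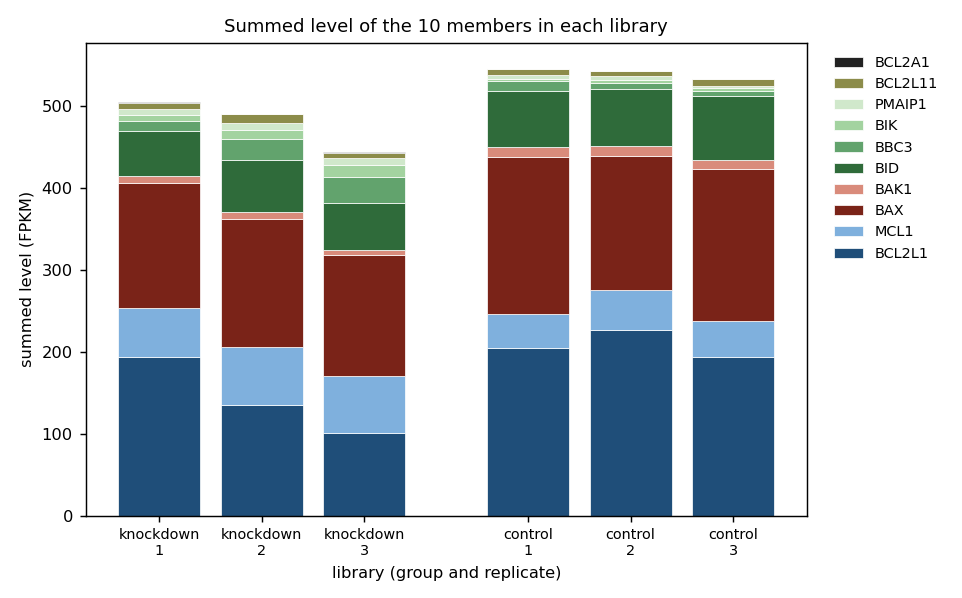
Summed level in FPKM (bar height, from 0) of the 10 members in each library, knockdown replicates 1 to 3 on the left and control replicates 1 to 3 on the right, with a colour per gene. BCL2L1, BAX, BID and MCL1 fill most of each bar, and the BCL2L1 segment is 193.59, 134.8 and 101.1 FPKM high in the knockdown libraries against 204.5, 226.9 and 193.95 in the control libraries.

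Of 13 other BCL2 homology genes, 12 had a row and 8 were tested. Among these 8, 1 rose and 0 fell, where 4.15% and 3.94% of all genes tested did. Their median log2 fold change was -0.03. The gene that rose was BMF, a BH3-only gene, with 16.3, 19.5 and 17.7 FPKM in knockdown replicates 1, 2 and 3, against 12.6, 9.99 and 12.3 in control replicates 1, 2 and 3 (log2 fold change 0.58, SE 0.14, adjusted p = 0.0414). BMF kept the call in 4 of 12 alternatives and lost it without each library other than knockdown replicate 1, with an adjusted p of up to 0.149. BCL2 itself, the founding antiapoptotic gene, was not tested, at 0, 0.51 and 0.09 in knockdown replicates 1, 2 and 3, against at most 0.01 in the control libraries, so its highest value is in the library with the most leukocyte markers; the part of those markers was not tested. BCL2L10, BCL2L14 and BCL2L15 were not tested either, with means of 0.02, 0.15 and 0.58 FPKM in knockdown and 0.10, 0.15 and 0.51 in control libraries. BOK, an effector-like member, averaged 3.49 ± 0.85 FPKM in knockdown and 1.89 ± 0.30 in control libraries (SD, n = 3 each; log2 fold change 0.62, adjusted p = 0.0771). The antiapoptotic BCL2L2 was at 9.86 ± 1.74 FPKM in knockdown and 10.6 ± 2.14 in control libraries, and the BH3-only BAD at 19.8 ± 4.67 and 24.0 ± 2.11 (knockdown and control; SD, n = 3 each). BCL2L12, BCL2L13, BNIP3 and BNIP3L had log2 fold changes of -0.13, 0.13, -0.08 and 0.03, and none of these passed.

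Of 13 genes at and downstream of the mitochondrial membrane (such as APAF1, CYCS, caspases and VDAC channels), 0 rose and 1 fell, with a median of -0.10. Among all genes tested 4.15% rose and 3.94% fell. VDAC3, which encodes a channel of the outer membrane, fell to 194, 180.4 and 162 FPKM in knockdown replicates 1, 2 and 3, against 241, 252 and 268 in control replicates 1, 2 and 3 (log2 fold change -0.50, SE 0.11, adjusted p = 0.0332). It kept the call in 2 of 12 alternatives and lost it without each library other than knockdown replicate 1 and under both other scalings, with an adjusted p of up to 0.123. At an unadjusted p below 0.05, 0 of the 13 were higher and 2 lower, and limma without trend and robust moderation called 0.

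Of 6 inhibitor of apoptosis genes tested, BIRC3 and NAIP rose and BIRC5 fell, with a median of 0.17. Over all genes tested, 4.15% rose and 3.94% fell. BIRC3, which encodes the ubiquitin ligase cIAP2, was at 9.60, 17.7 and 21.4 FPKM in knockdown replicates 1, 2 and 3, against 3.19, 4.24 and 2.97 in control replicates 1, 2 and 3 (log2 fold change 1.89, adjusted p = 0.0108). BIRC5, which encodes survivin and peaks in mitosis, was at 19.8, 25.3 and 20.8 FPKM in knockdown replicates 1, 2 and 3, against 41.2, 45.3 and 36.1 in control replicates 1, 2 and 3 (-0.87, adjusted p = 0.0154). NAIP was at 7.11 ± 1.36 FPKM in knockdown and 3.84 ± 0.68 in control libraries (SD, n = 3 each; 0.74, adjusted p = 0.0446), and as NAIP has near-identical copies in the genome its reads are uncertain. Without control replicate 1 the adjusted p of BIRC3 and BIRC5 was 0.0537 and 0.0622, and without control replicate 2 it was 0.0534 and 0.0813; NAIP lost the call without each library other than knockdown replicate 1, with an adjusted p of up to 0.156, and also with the replicate block (0.0786), with no filter (0.0944) and without trend and robust moderation (0.0515). XIAP had a log2 fold change of 0.01.

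Of 11 death receptor pathway genes tested, 0 passed in limma, with a median of -0.02. At an unadjusted p below 0.05, 3 were higher and 2 lower, where 29.3% of all genes tested had such a p. Limma without trend and robust moderation called 0. TNFRSF10B, which encodes the TRAIL receptor DR5 and is named outside the naming rule after its values were seen, was at 42.5, 42.0 and 42.4 FPKM in knockdown replicates 1, 2 and 3, against 28.9, 34.4 and 30.8 in control replicates 1, 2 and 3 (log2 fold change 0.42, adjusted p = 0.0529). Of 8 genes of the ubiquitin turnover of MCL1, NOXA and BIM proteins (such as HUWE1, FBXW7 and USP9X), 0 passed in limma, 1 was higher at an unadjusted p below 0.05, 0 passed without trend and robust moderation, and the median was 0.06.

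Of 16 transcription factor genes tested that are known to act on BCL2 family genes, 4 rose and 0 fell, with a median of 0.31. The shares over all genes tested were 4.15% and 3.94%. RELB and NFKB2, NF-kB subunit genes, were at 24.9, 46.3 and 65.8 and at 27.6, 43.5 and 54.0 FPKM in knockdown replicates 1, 2 and 3, against 10.5, 10.1 and 9.56 and 15.2, 22.8 and 18.1 in control replicates 1, 2 and 3 (log2 fold changes 1.98 and 1.08, adjusted p = 0.0128 and 0.0347). ATF3, a stress-induced factor gene, was at 17.0, 50.2 and 65.5 FPKM in knockdown replicates 1, 2 and 3, against 11.1, 9.36 and 6.05 in control replicates 1, 2 and 3 (2.04, adjusted p = 0.0422). MYC was at 40.7, 38.5 and 33.0 FPKM in knockdown replicates 1, 2 and 3, against 12.5, 22.6 and 22.5 in control replicates 1, 2 and 3 (0.97, adjusted p = 0.0351). RELB, NFKB2 and ATF3 were lowest of the knockdown libraries in replicate 1, and MYC was lowest in replicate 3. RELB lost the call without control replicate 1 or 2 or knockdown replicate 2 (adjusted p = 0.0568, 0.0660 and 0.0515), and NFKB2, ATF3 and MYC lost it without each library other than knockdown replicate 1, with adjusted p values of up to 0.109, 0.142 and 0.106. An mRNA level says nothing of how active a factor is.

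**Figure D4:**
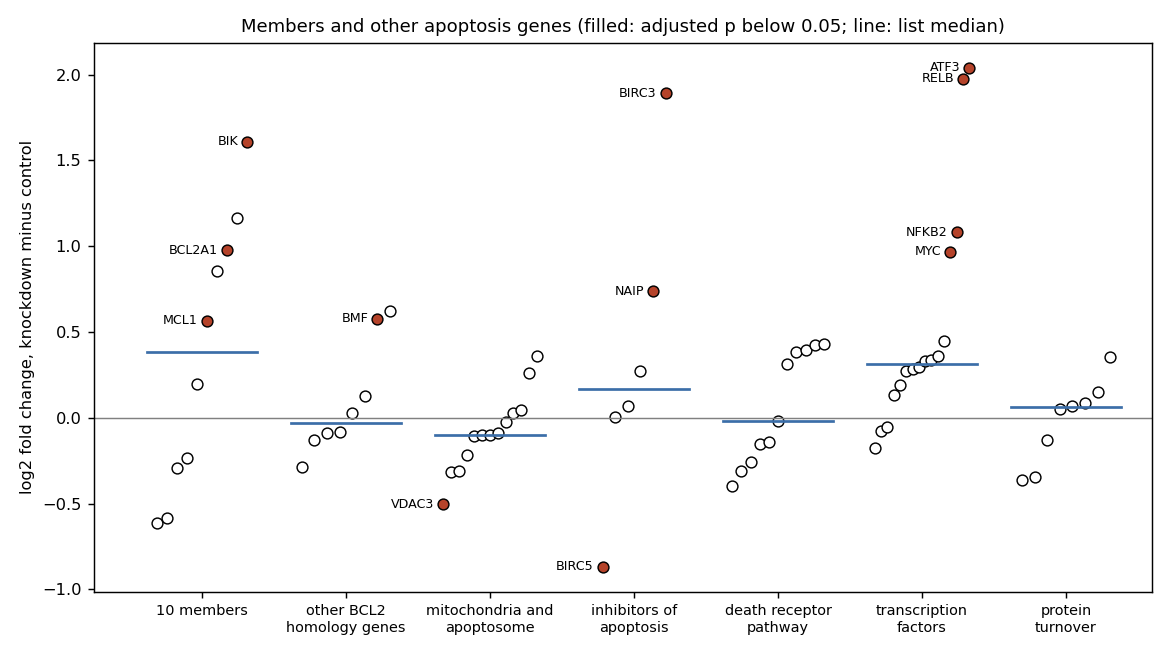
Log2 fold change (vertical axis, knockdown minus control) of each gene tested among the 10 members and the 6 other apoptosis lists (horizontal axis); filled points have an adjusted p below 0.05 and are named, and blue lines are list medians. The member points span -0.61 to 1.61 with a median of 0.38, and the medians of the other lists lie between -0.10 and 0.31.

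For the members that rose, the genes with the most similar pattern were taken by Pearson's r of log2(value + 1) over the 6 libraries among 8150 other genes with a mean log2 value of at least 3. These were SYPL1 and LMCD1 for BCL2A1 (r = 0.998 and 0.997), TNFAIP8 for MCL1 (r = 0.998) and GOLGA8A and UBD for BIK (r = 0.999 and 0.997). The libraries fall into 2 groups, so any gene with a similar split gives a high r, and no test was made. UBD, which encodes the ubiquitin-like protein FAT10, was at 155, 210.0 and 306 FPKM in knockdown replicates 1, 2 and 3, against 55.3, 50.7 and 62.4 in control replicates 1, 2 and 3, and GOLGA8A, one of a family of near-identical genes, at 22.8, 27.8 and 32.1 FPKM in the same knockdown libraries, against 12.3, 12.03 and 13.6 in the control libraries. LMCD1 and TNFAIP8 had log2 fold changes of 0.93 and 1.05 (adjusted p = 0.00702 and 0.0122). SYPL1 was the one of these genes that did not pass the test (93.5 ± 0.99 FPKM in knockdown and 77.7 ± 1.91 in control libraries; log2 fold change 0.26, adjusted p = 0.115).

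Over all genes tested, 568 were higher and 539 lower in the knockdown libraries. With 15 mitochondrially encoded genes taken out of the totals used for scaling, 673 were higher and 221 lower, with a median log2 fold change of 0.06 over all genes tested, and the members that rose were again BIK, MCL1 and BCL2A1 (log2 fold changes 1.70, 0.67 and 1.01).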

How the data were processed

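Per the labels' protocols, RNA was taken up in Trizol and sequencing libraries were prepared with Illumina's TruSeq RNA kit. The submitters' processing notes name RSEM 1.1.17 and Bowtie2 2.2.6, further Trimmomatic 0.36 and bcl2fastq 2.19.0, and also DESeq2 1.16.1 and edgeR 3.18.1, all without a role, and the mouse build mm10, although the IDs of all members are human. The authors deposited 1 table of 23344 genes with a column per library, whose values are not whole and were treated as FPKM; TPM of an incomplete gene set is possible. The number of reads is unknown, so no counting intervals were computed. The labels do not state separate cultures, and p-values may then measure technical spread alone.

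Groups and replicate numbers come from titles. A gene was tested if 3 or more libraries had a value of 1 or more (13696 genes), on log2(value + 1), with limma 3.58.1 in R 4.3.3 (mean-variance trend, robust moderation, two-sided, Benjamini-Hochberg over all genes tested, threshold 0.05). The procedure was run on simulated data, where only the recovery of large changes in genes that were not low was required. No limit on false calls was set there, so the run does not vouch for small changes or low genes. The alternatives, for the same genes except where the filter was dropped, were a pseudocount of 0.1, no filter, quantile normalization, rescaling without mitochondrially encoded genes, a replicate block, limma without trend and robust moderation, and leaving out each library. Sequences came from GENCODE 29 transcripts and the RefSeq promoter table, read with Biopython 1.88; BIK and MCL1 had no promoter entry.

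The members and the gene lists were chosen with earlier results of these data known. By rule the text names all members, VCAN, all other BCL2 homology genes, genes of the other lists that passed (4 at most per list), leukocyte markers that reached 1 in a library and the 2 genes most similar to each called member. The few others named were chosen after their values were seen. A gene that the rule names for MCL1 is not reported here.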

Additional observations from a re-analysis of the deposited data

How the results depend on the processing

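No member changed direction in any of the 12 alternatives, and BAX, BID and BCL2L11 passed in 0 of them. Leaving out 1 library at a time, the number of genes called ranged from 54 to 3342 and that of members from 0 to 7; the other counts ranged from 0 to 2 for the other BCL2 homology genes, 0 to 4 for genes of the mitochondrial membrane and apoptosome, 0 to 3 for inhibitors of apoptosis, 0 to 2 for the death receptor pathway, 0 to 7 for transcription factors and 0 to 1 for protein turnover. The log2 fold changes then ranged from -0.83 to -0.36 for BCL2L1, 0.93 to 1.01 for BCL2A1, 0.52 to 0.65 for MCL1, 1.43 to 1.79 for BIK, -0.69 to -0.47 for BAK1, 0.87 to 1.60 for BBC3, 0.58 to 1.03 for PMAIP1 and -1.56 to -1.23 for VCAN. With no filter 217 genes were called and without trend and robust moderation 727. MCL1 missed the threshold in both, at an unchanged 0.57 (adjusted p = 0.0718 and 0.0515; dropping the filter adds genes to the adjustment), and BCL2A1 missed it with quantile normalization, at 0.79 (adjusted p = 0.0518; the cause was not tested). The other BCL2 homology genes called were 0 with no filter, with the replicate block and without trend and robust moderation; those of the mitochondrial membrane and apoptosome were 0 in these 3 settings and with either other scaling. Inhibitors of apoptosis called were 2 in each of these 3 settings. The death receptor list had 1 with either other scaling, and the transcription factors 1 with no filter, 2 with the replicate block and 2 without trend and robust moderation. The labels give both groups replicate numbers but do not say whether these pair the libraries. Deviations from the group means correlated at 0.05, 0.10 and 0.14 between same-numbered libraries and at -0.21 to 0.09 between the others. Knockdown replicate 1 correlated best with control replicate 2 (0.09). With 3 libraries per group these values cannot decide whether the libraries are paired. With the replicate block 861 genes and 4 members were called, the fourth being BAK1 (-0.61, adjusted p = 0.0485). Depth could not be assessed, and values such as those of BCL2A1 in the control libraries may rest on few reads.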
